A study of Mus musculus with 8 samples.

Results

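The Ly49 receptors are a family of C-type lectin-like proteins that mouse natural killer (NK) cells carry on their surface, and they were followed here through 9 genes, Klra1 to Klra9, across the cells of tumour-bearing mouse liver. The members were taken by symbol, 9 of the 33696 genes in the deposited count matrices. All 9 had at least 1 UMI (unique molecular identifier, a tag that marks 1 captured RNA molecule) in the kept cells. The files hold 2 further rows of the family, Klra10 and Klra17, which are given where they help in reading the members.

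Most Ly49 proteins are inhibitory: a short signalling motif in their tail recruits phosphatases when they bind MHC class I molecules on another cell, which restrains the NK cell. Klra1 (Ly49A), Klra3 (Ly49C), Klra5 (Ly49E), Klra6 (Ly49F), Klra7 (Ly49G) and Klra9 (Ly49I) encode inhibitory members, and Ly49C and Ly49I are known to bind the MHC class I molecule H2-Kb. Klra4 (Ly49D) and Klra8 (Ly49H) encode activating members, which signal through the adaptor DAP12, the product of Tyrobp. Ly49H is known for recognising a protein of mouse cytomegalovirus. Klra2 (Ly49B) is known from myeloid cells, and Klra17 (Ly49Q) from plasmacytoid dendritic cells. Each NK cell is known to express its own combination of Ly49 genes, and the receptors are also known from some CD8 T cells and NKT cells.

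The study made droplet single-cell RNA libraries (10x 3′ chemistry) of livers with hepatocellular carcinoma. Male C57BL/6 mice were injected through the tail vein at 8 to 10 weeks of age with 30 µg of plasmids that carry a CRISPR guide against Trp53, a transposon with the oncogene c-Myc and the SB13 transposase, and tissue was taken 4 to 5 weeks later. In the group labelled knockout (genotype Ncr1iCre Nr4a1fl/fl), the Ncr1 locus (NKp46, an NK receptor) drives Cre in cells that express it, and Cre acts on floxed alleles of Nr4a1, the gene of the nuclear receptor Nur77. Control mice (Ncr1WT Nr4a1fl/fl) carry the same floxed alleles without Cre, so both groups share the floxed gene and the tumour plasmids. Each group has 3 mRNA libraries, called knockout 1 to 3 and control 1 to 3 after their labels. Knockout 3 pooled 2 mice and control 3 pooled 3 mice, while for the other libraries the animals behind each are not stated, so p-values measure the spread between libraries.

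After filtering, 2715, 134 and 4870 cells remained in knockouts 1, 2 and 3, against 2639, 547 and 9182 cells in controls 1, 2 and 3. They held 28717421, 887170 and 60889289 UMIs in knockouts 1, 2 and 3, and 37932211, 2175184 and 81627043 UMIs in controls 1, 2 and 3. Both libraries numbered 2 stood apart: the median mitochondrial share of barcodes with at least 500 UMIs was 75.1% in knockout 2 and 27.9% in control 2, against 6.7% to 10.0% in the others. Pairs of libraries shared between 0 and 15 cell barcodes. The targeted gene did not mark the libraries: Nr4a1 had 160, 0 and 77.3 CPM (UMIs of a gene scaled to a common total of the class in its library) in NK cells of knockouts 1, 2 and 3, against 80.7, 37.2 and 50.5 CPM in controls 1, 2 and 3. The log2 fold change of Nr4a1 came to 0.80 (SE 0.44) with an adjusted p of 1 by the edgeR quasi-likelihood test. These are 3′ tags and the labels do not say which exons are floxed, so this level does not check the labels, and directions below are those of the libraries labelled knockout.

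Cells were called by marker UMIs that include no Klra gene. NK cells had a UMI of Ncr1 or Klrb1c (NK1.1) and of Nkg7 with none of Cd3d, Cd3e and Cd3g. NKT-like cells had at least 2 UMIs of the Cd3 genes and 1 of Klrb1c. CD8 T cells had at least 2 UMIs of the Cd3 genes and 1 of Cd8a or Cd8b1 with no Cd4, Klrb1c or Ncr1. Myeloid cells had a UMI of Csf1r or Csf3r and of Lyz2 with none of the lymphocyte markers. NK cells numbered 65, 12 and 109 in knockouts 1, 2 and 3, against 208, 80 and 358 in controls 1, 2 and 3, with median depths of 4012 to 7088 UMIs. NKT-like cells numbered 138, 0 and 124 in the libraries labelled knockout, against 57, 11 and 229 in controls. CD8 T cells numbered 248, 0 and 279, against 100, 4 and 1303, and myeloid cells 349, 10 and 283, against 197, 21 and 387, in the same order of libraries. As a limited check for other cells among the NK cells, 10 T cell genes were summed. They had 602 to 790 CPM in NK cells of the libraries labelled knockout and 609 to 724 CPM in those of controls. In CD8 T cells the sum was 5037 to 6031 CPM. Trbc2 alone had 181 to 420 CPM in NK cells and Trac 7.55 to 13.2 CPM. Cd3e was at 0 in each library, which the rule fixes, so the sum cannot show that no T cells are among them.

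The genes lie on mouse chromosome 6, all but Klra2 close together. The following 4 promoter windows are shown because they belong to members with different cell patterns: both activating genes of NK cells, the member with the largest share of its UMIs in NKT-like cells (Klra5) and the member of myeloid cells (Klra2). They are the 250 bases before each gene's start in RefSeq (GRCm38.p6, an earlier build than the GRCm39 of the counts), with the 6 letters GAGGAA, or their reverse complement TTCCTC, in capitals. GAGGAA is the core of a PU.1-type ETS family site.
Klra4 (Ly49D, chr6:130067272-130067521, minus strand): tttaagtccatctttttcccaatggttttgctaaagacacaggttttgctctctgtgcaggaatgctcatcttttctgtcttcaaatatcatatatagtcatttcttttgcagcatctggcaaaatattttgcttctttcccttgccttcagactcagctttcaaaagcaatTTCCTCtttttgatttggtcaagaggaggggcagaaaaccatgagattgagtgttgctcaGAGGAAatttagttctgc
Klra8 (Ly49H, chr6:130129836-130130085, minus strand): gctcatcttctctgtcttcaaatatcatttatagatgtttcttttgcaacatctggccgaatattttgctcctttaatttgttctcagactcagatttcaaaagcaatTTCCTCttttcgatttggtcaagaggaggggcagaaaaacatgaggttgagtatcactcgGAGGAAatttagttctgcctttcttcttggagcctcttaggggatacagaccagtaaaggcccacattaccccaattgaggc
Klra5 (Ly49E, chr6:129913225-129913474, minus strand): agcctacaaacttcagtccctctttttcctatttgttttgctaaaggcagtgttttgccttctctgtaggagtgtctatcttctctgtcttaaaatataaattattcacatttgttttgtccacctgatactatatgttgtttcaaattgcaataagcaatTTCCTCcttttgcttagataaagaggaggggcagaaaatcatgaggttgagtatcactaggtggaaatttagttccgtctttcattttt
Klra2 (Ly49B, chr6:131247363-131247612, minus strand): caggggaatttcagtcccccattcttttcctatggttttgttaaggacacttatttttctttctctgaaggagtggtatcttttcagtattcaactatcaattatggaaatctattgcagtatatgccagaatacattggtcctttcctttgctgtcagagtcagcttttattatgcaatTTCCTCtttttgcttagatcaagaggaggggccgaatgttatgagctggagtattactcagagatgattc

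In these 4 windows TTCCTC falls in the stretch aatTTCCTC that all of them contain, and Klra4 and Klra8 each hold a second match, on the other strand, nearer the start. The letters occurred in 7 of the 9 members' windows (Klra7 had them only in the window of a second start, and Klra1 had none) and in 23.3% of 32851 RefSeq windows of the same length. Sequences of related genes share letters by descent, so the members are not independent cases. The Nur77 site AAAGGTCA was found in no member's window and in 1.3% of all windows, and TGANTCA, an AP-1 site, in none and in 6.7%. These counts describe letters in a short window. The windows of Klra3 and Klra9 were 83.6% identical, those of Klra5 and Klra6 73.3%, and those of Klra4 and Klra2 71.5%. RefSeq lists a second start of Klra8, 63 bases upstream of the one whose window is shown, and the window of that second start was 84.6% identical to that of Klra4. The lower 53.5% between the windows of Klra4 and Klra8 shown thus compares windows that are offset from each other.

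Similar transcripts also limit what the counts can separate. Over the last 500 bases of their GENCODE vM21 transcripts, where 3′ tags fall, Klra3 and Klra9 were 98.2% identical, Klra10 and Klra9 97.4%, and Klra5 and Klra6 90.3%. Klra2 and Klra7 were the most distinct, with closest identities of 54.4% and 76.5%. Of the 401 windows of 100 bases in each end, Klra3 and Klra10 shared 22 (5.5%), while Klra9 shared 0 with the family. Counts of Klra3, Klra9 and Klra10 are still uncertain, since reads may have been split or dropped between such similar ends. CPM compares transcripts by their 3′ ends and is not divided by gene length.

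In NK cells the activating and the inhibitory members took similar parts of the Ly49 RNA. The 9 members summed to 1961, 2010 and 2456 CPM in NK cells of knockouts 1, 2 and 3, against 1929, 2502 and 2400 CPM in controls 1, 2 and 3, and the groups overlapped. The activating pair made up 38.5%, 66.1% and 49.3% of the members' UMIs in the libraries labelled knockout, against 42.9%, 61.1% and 53.4% in controls. A member was detected in 87.7%, 83.3% and 88.1% of NK cells of the libraries labelled knockout, against 77.9%, 88.8% and 86.6% in controls. In B cells, for comparison, the share was 0.99% and 1.46% in knockouts 1 and 3, against 0.91% and 3.47% in controls 1 and 3. These B cells had median depths of 2039 to 3255 UMIs. Control 2 had 14 B cells, of which 1 held a member UMI. Klra1 had the most UMIs of the members in B cells, 31 in 28 cells, and whether B cells express it was not tested.

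**Figure D1:**
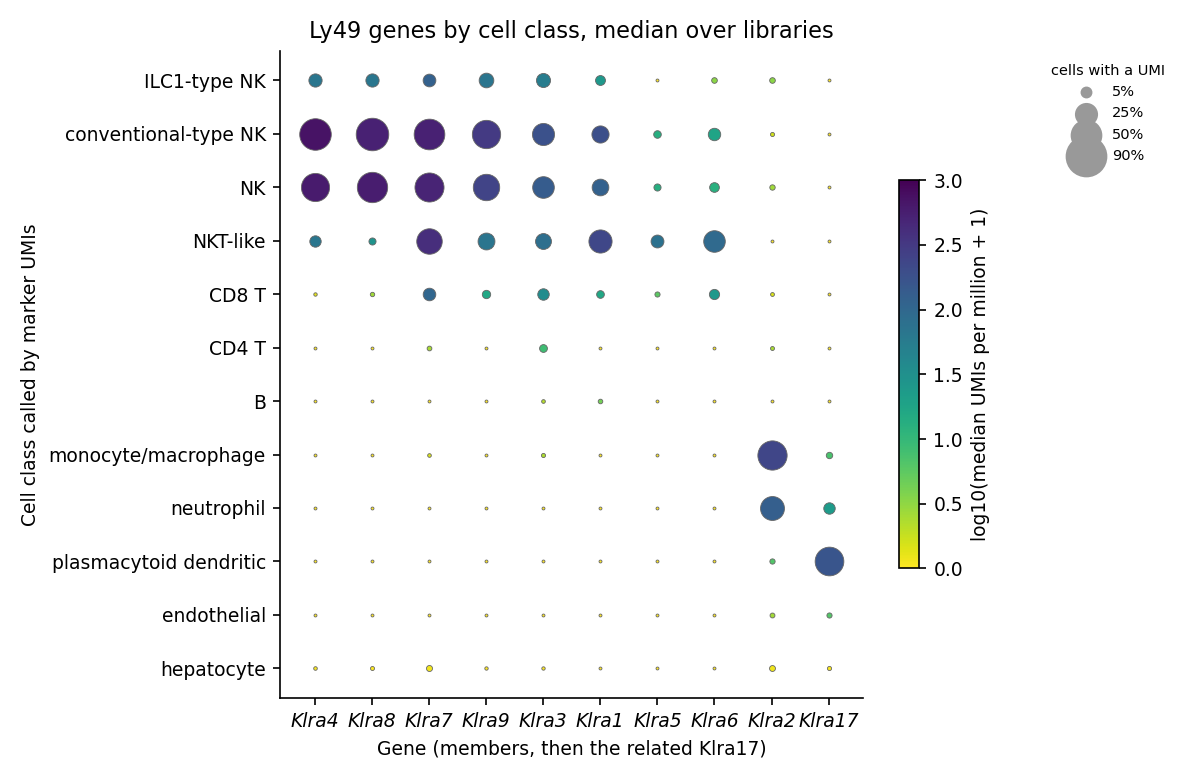
Each of the 9 members and Klra17 (columns) by cell class (rows): colour is log10(median CPM + 1) and dot area the median share of cells with a UMI, both over the libraries with at least 10 cells of the class. Klra4 and Klra8 are dark in NK and conventional-type NK cells and lighter elsewhere. Among the classes shown, Klra5 and Klra6 are strongest in NKT-like cells, Klra2 in monocytes, macrophages and neutrophils, and Klra17 in plasmacytoid dendritic cells. Myeloid cells outside the rows of monocytes, macrophages and neutrophils are not shown.

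Among the activating members, Klra4 (ENSMUSG00000079852) had 428, 556 and 679 CPM in NK cells of knockouts 1, 2 and 3, against 475, 815 and 653 CPM in controls 1, 2 and 3. Klra8 (ENSMUSG00000089727) had 328, 772 and 531 CPM in the libraries labelled knockout, against 353, 713 and 628 CPM in controls. For both genes replicate 1 was the lowest library of its group, and the groups overlapped. Klra4 UMIs were seen in 33.3% to 45.9% of NK cells of the libraries labelled knockout and 38.0% to 50% of those of controls. Klra8 was in 44.6% to 58.3% and 41.4% to 56.2% of them. Positive NK cells held 7.15 to 12.2 Klra4 UMIs on average per library, and up to 49 in 1 cell.

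Klra7 (Ly49G) was the inhibitory member with the most UMIs in NK cells. It had 739, 375 and 520 CPM in knockouts 1, 2 and 3, against 472, 461 and 527 CPM in controls 1, 2 and 3. The libraries labelled knockout spread on both sides of the controls, with knockout 1 the highest and knockout 2 the lowest of all 6. Klra9 (Ly49I) had 155, 45.4 and 269 CPM in the libraries labelled knockout, against 259, 240 and 291 CPM in controls. Klra3 (Ly49C) had 114, 125 and 296 CPM, against 135, 141 and 174 CPM, and Klra1 (Ly49A) 175, 79.5 and 143 CPM, against 209, 91.6 and 97.8 CPM, in the same order of libraries. All 3 of these genes overlapped between the groups, Klra9 only through knockout 3, and knockout 2, with 12 NK cells, held the lowest Klra9 and Klra1 level.

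Klra5, Klra6 and Klra2 were near the limit of detection in NK cells. Klra5 had 5, 5 and 0 UMIs in knockouts 1, 2 and 3, against 19, 12 and 13 UMIs in controls 1, 2 and 3. Klra6 had 8, 0 and 9 UMIs, against 11, 4 and 51 UMIs, and Klra2 1, 0 and 2 UMIs, against 2, 0 and 7 UMIs. A count of 0 still allows 34.1 CPM in knockout 2 and 4.83 CPM in knockout 3 (3 counts of the library's NK UMIs, counting error only). Ordered by their mean over the 6 libraries, the members ran from Klra4 (601 ± 143 CPM, SD, n = 6) through Klra8 (554 ± 185) and Klra7 (516 ± 123) to Klra9 (210 ± 93.3), Klra3 (164 ± 67.9) and Klra1 (133 ± 51.7), with Klra5 (19.3 ± 21.1), Klra6 (11.2 ± 6.75) and Klra2 (1.56 ± 1.35) last. The first 3 lay within 1 SD of each other, as did Klra9, Klra3 and Klra1 from neighbour to neighbour, with a wide step between Klra7 and Klra9 and another between Klra1 and Klra5. Klra10 (Ly49J), outside the 9, had 9.88, 0 and 12.9 CPM in the libraries labelled knockout, against 14.3, 27.2 and 12.7 CPM in controls.

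**Figure D2:**
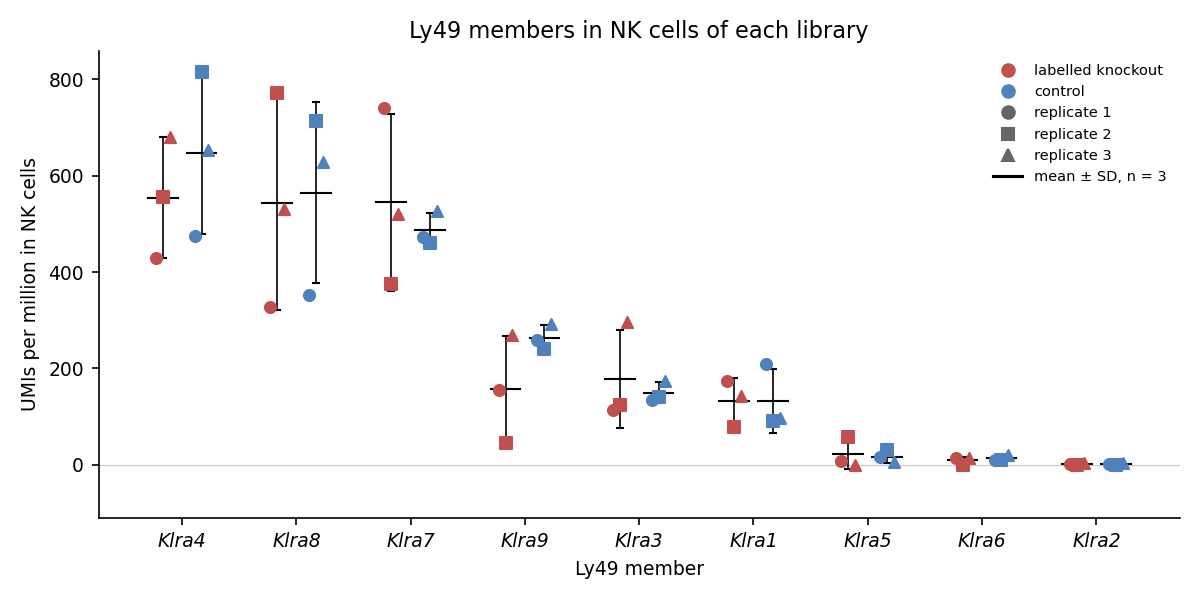
CPM of the 9 members in NK cells, 1 point per library (shape: replicate) with bars for the group mean ± SD (n = 3 each), libraries labelled knockout to the left of controls. The groups overlap for each member, and Klra4, Klra8 and Klra7 are the 3 highest.

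No Ly49 gene passed the test between NK cells of the libraries labelled knockout and of controls. Of the 9 members, 6 passed the filter on low counts and 0 of these passed the test, in a fit that called 0.0147% of the 6796 genes tested. The log2 fold changes, libraries labelled knockout over controls, were -0.20 for Klra4 (SE 0.24), -0.10 for Klra8 (SE 0.32), 0.22 for Klra7 (SE 0.21), 0.35 for Klra3 (SE 0.32) and 0.13 for Klra1 (SE 0.32), each with an adjusted p of 1. Klra9 had the most negative value, -0.53 (SE 0.32, unadjusted p = 0.124, adjusted p = 1 by edgeR). With the replicate number as a block it was -0.61 (SE 0.24, unadjusted p = 0.0212 by edgeR). In simulated data with the depths and numbers of these libraries, the fit recovered 79.9% of genes changed 4-fold and 7.4% of those changed 2-fold. Every simulated gene had the same assumed spread between libraries, not an estimate from these data, and only genes above a count floor were changed. At that spread, changes of 2-fold would mostly have been missed. The signs of Klra1, Klra3, Klra7 and Klra8 turned when single libraries were left out.

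No member passed on the share of NK cells with a UMI either. Klra7 was detected in 63.1%, 58.3% and 48.6% of NK cells of knockouts 1, 2 and 3, against 42.3%, 46.2% and 47.8% in controls 1, 2 and 3. The groups did not overlap, and the mean difference was 11.2 percentage points (56.7% ± 7.37 against 45.4% ± 2.82, SD, n = 3 each). The exact two-sided permutation test gave p = 0.1, the smallest that 3 against 3 libraries allow, and 0.45 after Benjamini-Hochberg adjustment over the 9 members. Klra9 was detected in 33.9%, 25% and 39.4% of NK cells of the libraries labelled knockout, against 39.9%, 43.8% and 45.2% in controls, a difference of -10.2 points with the same p and adjusted p by the exact permutation test. Within same-numbered pairs Klra7 was higher in the library labelled knockout in 3 of 3, with differences of 20.8, 12.1 and 0.86 points, and Klra9 was lower in 3 of 3, with -6.06, -18.8 and -5.80 points. Klra3 (1.15, 5.83 and 8.53 points) and Klra8 (3.27, 2.08 and 1.26 points) were higher in 3 of 3 as well. For 3 pairs an exact paired permutation test cannot go below p = 0.25. The remaining 7 members had exact permutation p-values of 0.5 to 0.9. When each cell was thinned to 1000 UMIs, the mean differences were 2.52 points for Klra7 (exact permutation p = 0.5) and -5.80 points for Klra9 (exact permutation p = 0.4). The thinned pairs 1, 2 and 3 differed by 0.42, 10.3 and -3.12 points for Klra7 and by -7.89, -9.62 and 0.09 points for Klra9. Neither gene thus kept 1 direction in all pairs. Knockouts 1 and 2 have the deepest NK cells, with median depths of 7088 and 6094 UMIs.

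Genes linked to Ly49 signalling and NK maturation held no call. Of 13 adaptors, kinases and phosphatases that act below the receptors, all were tested and 0 passed, with a median log2 fold change of -0.13 against 0 over all genes. Fyn, a Src-family kinase, had -0.26 and Plcg2, a phospholipase, -0.23. Of 7 genes of MHC class I ligands and assembly 0 passed (median -0.01), with H2-K1 at -0.13 and Tapbp, a peptide-loading chaperone, at -0.09. Of 14 other lectin receptors of the same gene complex 0 passed (median -0.02), among them Klrg1 at 0.87 (SE 0.31, unadjusted p = 0.0144 by edgeR) and Cd69, an activation marker, at 0.67. Of 13 transcription factors of NK maturation that were tested 0 passed (median -0.16), with Tox at -0.65 and Tcf7, known as an activator of Ly49 genes, at -0.67 (SE 0.27, unadjusted p = 0.0271). Of 8 tested markers of maturation and tissue residency 0 passed (median -0.07), with the death ligand Tnfsf10 at -0.93 (SE 0.51) and the interleukin 7 receptor Il7r at -0.55.

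In the same fit Serpine2, a protease inhibitor, was the gene that passed. It had 80.7, 34.1 and 46.7 CPM in NK cells of knockouts 1, 2 and 3, against 9.25, 2.48 and 7.15 CPM in controls 1, 2 and 3, higher by 3.03 on the log2 scale (SE 0.37, adjusted p = 0.0184 by edgeR). The next smallest p-values were those of Cdkn1a, a cell cycle inhibitor, at 2.01 (SE 0.32, adjusted p = 0.126) and of Dscam, a cell adhesion gene, at -1.84 (SE 0.39, adjusted p = 1). The block raised the number of genes called to 8, and without either knockout 2 or any 1 of the controls the number was 0. Ncr1, which carries Cre in the libraries labelled knockout and takes part in the NK call, had 201, 568 and 325 CPM, against 819, 723 and 676 CPM in controls (log2 fold change -1.13, SE 0.29, unadjusted p = 0.00228, adjusted p = 1). Calling NK cells by Klrb1c alone also gave 1 gene. Markers of other cells did not pass either: 3 T cell genes were tested (Trdc -0.63 and Trbc2 0.45), 6 hepatocyte genes (Alb -1.17 and Fgb -1.08) and 2 myeloid and B cell genes (Cd74 -1.11 and Ighm -0.28). Hepatocyte genes summed to 42.8, 102 and 448 CPM in NK cells of the libraries labelled knockout, against 233, 66.9 and 630 CPM in controls, and their part in these values was not tested.

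Within NK cells, the Ly49 genes marked the conventional-type cells far more than the ILC1-type cells. ILC1-type cells, the tissue-resident kind, had a UMI of Cxcr6 or Itga1 and none of Eomes, Itgam and S1pr5, and conventional-type cells the converse. The members summed to 520 and 280 CPM in ILC1-type cells of controls 1 and 3, against 2459 and 2865 CPM in conventional-type cells of the same libraries. A member was detected in 27.6% of 29 and 35.1% of 37 ILC1-type cells, against 91.4% of 116 and 97.6% of 212 conventional-type cells. The other libraries held 0 to 5 ILC1-type cells, so the comparison rests on these 2 controls and says nothing about the libraries labelled knockout.

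Of the 9 members, 6 were tested and 5 were lower in ILC1-type cells, in a fit that called 0.414% of 5796 genes lower. Klra4 had 114 and 18.7 CPM in ILC1-type cells of controls 1 and 3, against 661 and 833 CPM in conventional-type cells, a log2 difference of -3.57 (SE 0.56, adjusted p = 0.0194 by edgeR). Klra8 had 83.1 and 46.7 CPM, against 498 and 780 CPM (-3.26, SE 0.42, adjusted p = 0.00632 by edgeR). Both activating genes were thus lower in ILC1-type cells of either library. Klra1 (-3.01, adjusted p = 0.0339), Klra9 (-2.35, adjusted p = 0.0133) and Klra7 (-2.16, adjusted p = 0.00906) passed as well, and Klra3 did not (-1.69, SE 0.45, adjusted p = 0.184). Klra3 did pass when libraries with at least 3 cells of each kind entered (-1.45, adjusted p = 0.0082), a setting chosen after seeing the data, and Klra4 and Klra1 did not pass without the library in the model (adjusted p = 0.0658 and 0.309). Of 2 markers of myeloid and B cells tested, Cd74 was higher in ILC1-type cells (3.27, adjusted p = 0.0018 by edgeR) and Ighm did not pass (1.34, adjusted p = 0.0915). Ighm had 127 and 178 CPM in ILC1-type cells, against 42.8 to 74.4 CPM in conventional-type cells per library. Of 3 T cell genes and 7 hepatocyte genes tested, 0 passed. The part of other cells in the differences was not tested.

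Of the 14 other lectin receptors of the gene complex tested, 2 were higher in ILC1-type cells, Klrb1b by 2.05 (adjusted p = 0.00642) and Klrc1, which encodes the inhibitory receptor NKG2A, by 1.41 (adjusted p = 0.0484), and 0 were lower, with a median log2 difference of -0.09 over the 14. None of the 13 signalling genes passed (0 in each direction, median -0.21). Of the transcription factors, Zeb2, known from terminal NK maturation, was lower by 2.54 on the log2 scale (adjusted p = 0.00446), and Ikzf2 (Helios) was higher by 2.64 (adjusted p = 0.00218). Eomes, Itgam, S1pr5, Cxcr6 and Itga1 were used in the call and are no result.

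Pooled over the 6 libraries, the activating members had the largest share of their UMIs in NK cells. Of all Klra4 UMIs in kept cells, 4453 in number, 73.4% lay in NK cells, and of 3925 Klra8 UMIs 73.5%. The share fell to 55.5% for Klra9, 45.5% for Klra7, 33.8% for Klra3 and 30.7% for Klra1. It was 10.9% for Klra6 and 8.46% for Klra5, of which 32.5% and 46.5% lay in NKT-like cells. These pooled shares weigh the libraries by their UMIs, and control 3 holds the most cells. Many of the 20087 kept cells met no class rule, and each member had part of its UMIs in such cells. What is left of a share is thus not the level of another known class. In single libraries the share in NK cells ran from 67.5% to 83.4% for Klra4, from 69.5% to 85.5% for Klra8 and from 30.2% to 56.7% for Klra7. In control 2 Klra9 had 83.6%, above both Klra4 and Klra8, and in knockout 2 the 5 UMIs of Klra5 all lay in NK cells. Klra2 had 3941 UMIs, 51.4% of them in myeloid cells and 0.3% in NK cells.

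Against CD8 T cells of the same libraries, 6 of the 9 members were higher in NK cells, in a fit that called 9.52% of 9833 genes higher, 8.98% lower and 18.5% in either direction. Klra4 had 428, 679, 475 and 653 CPM in NK cells of knockouts 1 and 3 and controls 1 and 3, against 0, 0.60, 0 and 2.63 CPM in CD8 T cells of these libraries. Its log2 difference was 8.41 (SE 0.28, adjusted p = 2.2e-11 by edgeR), and that of Klra8 was 8.10 (SE 0.25, adjusted p = 2.2e-11). A fitted difference from a level near 0 depends on the prior count and is no exact fold. Klra9 was higher by 3.61 (SE 0.24), Klra1 by 2.95 (SE 0.22), Klra7 by 2.92 (SE 0.33) and Klra3 by 1.88 (SE 0.25, adjusted p = 5.16e-05). Klra10, outside the 9, was higher by 3.67. Klra5 (0.48, SE 0.56, adjusted p = 0.644) and Klra6 (-0.13, SE 0.38, adjusted p = 0.88) did not pass, and the sign of Klra6 turned to 0.54 in control libraries alone.

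The adaptor of the activating receptors followed. Of the 13 signalling genes, 6 were higher and 2 lower in NK than in CD8 T cells. Tyrobp (DAP12) was higher by 5.86 on the log2 scale, Sh2d1b1, an adaptor of the SLAM family, by 5.99, the kinase Syk by 5.16, the adaptor Fcer1g by 4.76, Plcg2 by 3.05 and the phosphatase Inpp5d by 0.53. The kinase Lck (-0.47) and Hcst (DAP10, -0.45) were lower. Tyrobp ran from 1502 to 2532 CPM in NK cells over the 6 libraries and from 17.2 to 71.1 CPM in CD8 T cells. Of the 14 other lectin receptors, 11 were higher and 1, Cd69, was lower.

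NKT-like cells carried a Ly49 repertoire of another make-up. The members summed to 843 and 879 CPM in knockouts 1 and 3, against 1645, 1358 and 788 CPM in controls 1, 2 and 3, and the activating pair made up 4.53% and 6.36% of their UMIs in the libraries labelled knockout, against 9.29%, 5.95% and 19.0% in controls. Control 3 had the lowest sum and the largest activating share. Klra7 led with 305 and 399 CPM in knockouts 1 and 3, against 507, 695 and 267 CPM in controls 1, 2 and 3. Klra1 followed with 229 and 120 CPM, against 444, 307 and 118 CPM. For both genes control 3 was the lowest library, and the groups overlapped.

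Klra5, Klra6 and, by less, Klra1 were lower in NK than in NKT-like cells. Klra5 ran from 0 to 56.8 CPM in NK cells over the 6 libraries. In NKT-like cells it had 80.5 and 74.6 CPM in knockouts 1 and 3, against 153, 32.3 and 66.3 CPM in controls 1, 2 and 3. Its log2 difference, NK minus NKT-like, was -3.33 (SE 0.32, adjusted p = 7.08e-07 by edgeR), and that of Klra6 -2.16 (SE 0.28, adjusted p = 2.58e-05). Klra1 was lower in NK cells by 0.57 (SE 0.18, adjusted p = 0.0455), a call lost without the library in the model (adjusted p = 0.254) or without knockout 1, control 1 or control 2. Klra8 (3.84, SE 0.30), Klra4 (3.26, SE 0.23), Klra9 (1.42) and Klra3 (1.26) were higher in NK cells, and Klra7 was not called (0.44, SE 0.18, adjusted p = 0.135). The fit called 5.46% of 8053 genes higher and 6.78% lower in NK cells, against 4 and 3 of the 8 members tested. Tyrobp lay between 266 and 922 CPM in NKT-like cells, above its range in CD8 T cells and below that in NK cells.

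Against CD8 T cells, 7 of the 8 members tested were higher in NKT-like cells, in a comparison added after seeing the data that called 5.51% of 9706 genes higher, 3.14% lower and 8.65% in either direction. Klra4 was higher by 5.10, Klra8 by 4.81, Klra5 by 4.32, Klra1 by 3.28, Klra7 by 2.31, Klra9 by 2.04 and Klra6 by 1.88 on the log2 scale. Klra3 was the exception, with 0.54 (adjusted p = 0.159).

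**Figure D3:**
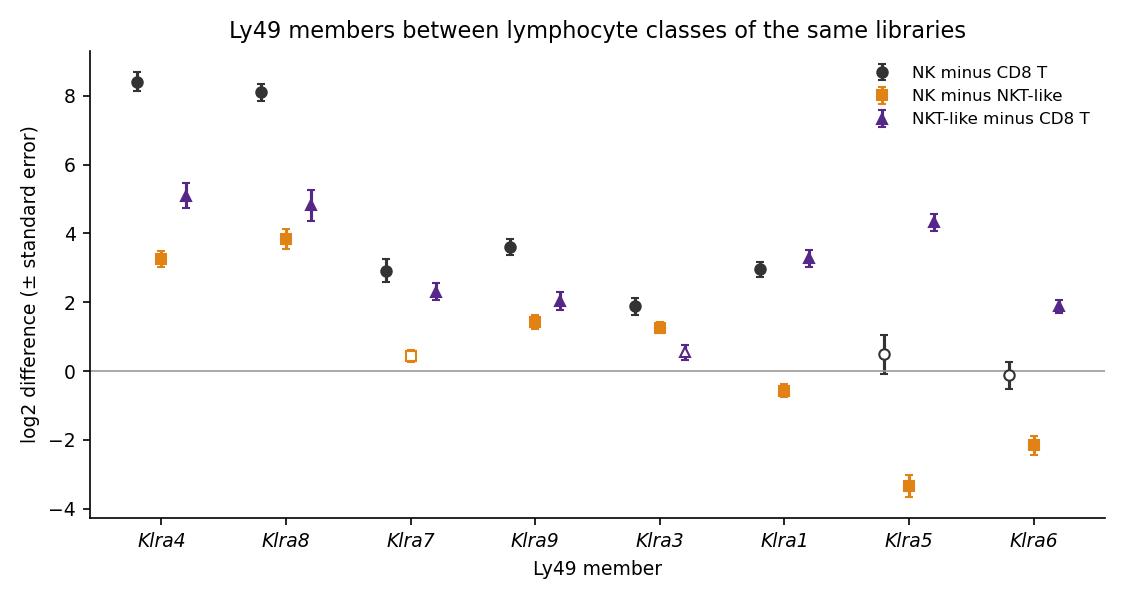
Log2 difference of each tested member with its SE in 3 comparisons between lymphocyte classes (positive values: higher in the class named first; filled points: adjusted p under 0.05). Klra4 and Klra8 have the largest NK minus CD8 T differences, 8.41 and 8.10, and Klra5, Klra6 and Klra1 are negative for NK minus NKT-like.

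In NKT-like cells Klra4 had low values in the libraries labelled knockout, while Klra8 overlapped between the groups, and neither passed the test. Klra4 had 35.2 and 27.96 CPM in knockouts 1 and 3, against 123, 80.8 and 65.8 CPM in controls 1, 2 and 3. It was seen in 1.45% of 138 and 2.42% of 124 cells, thus in few cells, against 7.02%, 9.09% and 6.99% in controls. The groups did not overlap for Klra4. With so few libraries groups often come apart by order alone, and the share of all genes without overlap was not computed. Klra8 had 3.02 and 27.96 CPM in the libraries labelled knockout, against 30.0, 0 and 84.1 CPM in controls, and the 0 of control 2 rests on 11 cells. Klra4 UMIs were in 0% and 0% of B cells of knockouts 1 and 3, against 0.46% and 0.45% in controls 1 and 3. Of NK genes outside the family, several lay the same way in these cells and others overlapped between the groups. Tyrobp UMIs were in 30.4% and 33.9% of NKT-like cells of knockouts 1 and 3, against 63.2%, 72.7% and 40.6% in controls 1, 2 and 3, and Klre1 had 359 and 356 CPM, against 656, 517 and 415 CPM, in both cases without overlap. Gzma UMIs were in 18.12% and 18.55% of these cells, against 36.84%, 27.27% and 37.99%, also without overlap. Its CPM did overlap, at 1287 and 2641, against 2392, 566 and 3372. Xcl1 overlapped as well, with 913 and 811 CPM, against 2275, 323 and 1049 CPM. Nkg7 had 1237 and 1319 CPM, against 1454, 1455 and 1393 CPM, and Eomes 37.22 and 27.96 CPM, against 38.96, 64.67 and 40.04 CPM. Ncr1, which carries Cre in the libraries labelled knockout, had 43.26 and 37.29 CPM, against 326.69, 210.18 and 216.77 CPM. Nkg7, Eomes and Ncr1 thus did not overlap in CPM, while the shares of cells with an Nkg7 or Eomes UMI did. Klrb1c, used in the call, and Hcst overlapped in CPM. Cd3e had 475 and 368 CPM, against 327, 275 and 310 CPM. The part of such a difference in the make-up of the NKT-like cells in the Klra4 and Klra8 values was not tested. On replicates 1 and 3, 2 against 2 libraries, Klra4 had a log2 fold change of -1.44 (SE 0.35, unadjusted p = 0.00176, adjusted p = 1 by edgeR) and Klra8 of -2.24 (SE 0.70, unadjusted p = 0.00874, adjusted p = 1). With the block the adjusted p-values were 0.11 and 0.136. Klra4 did pass without control 3, as did Klra1 and Klra9, and Klra8 without control 1, settings that leave 1 control library.

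That fit called 0.0258% of 7743 genes, both lower in the libraries labelled knockout. They were Ccl3, a chemokine (-3.47, adjusted p = 0.00404 by edgeR), and Ncr1 (-2.70, adjusted p = 0.00404), named because they are the genes called. The block gave 4 calls. The other members had log2 fold changes of -0.88 (Klra9), -0.55 (Klra1), -0.41 (Klra3), -0.33 (Klra5), -0.09 (Klra7) and 0.46 (Klra6), 0 of them called.

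CD8 T cells as called, without UMIs of Klrb1c or Ncr1, held a smaller, almost wholly inhibitory set. The rule puts T cells with Klrb1c among the NKT-like cells, of which 9.09% to 19.65% per library had a Cd8a UMI. The part of this rule in the smaller set, and in the differences from NK and NKT-like cells, was not tested. A member was detected in 18.9% and 17.2% of CD8 T cells of knockouts 1 and 3, against 17% and 16.8% in controls 1 and 3, where B cells had 0.91% to 3.47%. The activating pair made up 0.67% and 0.27% of the members' UMIs, against 0.87% and 3.75%. Klra4 was seen in 0% to 1.07% of CD8 T cells, close to its 0% to 0.46% in B cells. Klra7 had 104 and 102 CPM in knockouts 1 and 3, against 125 and 18.9 CPM in controls 1 and 3, and Klra3 29.4 and 30.1 CPM, against 38.5 and 76.8 CPM. Control 3 was the library apart, low for Klra7 and high for Klra3.

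Klra1 had 37.8 and 19.3 CPM in CD8 T cells of knockouts 1 and 3, against 11.6 and 8.40 CPM in controls 1 and 3, and the groups did not overlap. With 2 against 2 libraries groups often come apart by order alone, and the share of all genes without overlap was not computed. The log2 fold change of Klra1 came to 1.66 (SE 0.38, unadjusted p = 0.00174, adjusted p = 0.528 by edgeR), and that of Klra3 -1.09 (SE 0.32, unadjusted p = 0.0083, adjusted p = 0.573). Klra6 had 1.25 (SE 0.42), Klra9 1.02 (SE 0.40), Klra7 0.95 (SE 0.66) and Klra5 0.07. Of these, 0 passed, in a fit on 2 against 2 libraries that called 0% of 9683 genes, with 667 at an unadjusted p under 0.05 and 9 calls by DESeq2. The block gave 23 calls. Leaving out control 1, Klra3 and Klra7 passed (log2 fold changes -1.40 and 2.41), and leaving out knockout 3, Klra1 passed (2.03), with 1 library left in an arm in each case.

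CD8 T cells with a member UMI differed from those without one in other genes too. This comparison was added after seeing the data. The members were chosen by the split and are no result in it. Cells with a UMI numbered 47 and 48 in knockouts 1 and 3 and 17 and 219 in controls 1 and 3, against 201, 231, 83 and 1084 cells without one. They were deeper, with median UMIs of 9159, 5908, 4992 and 5364, against 5868, 4041, 3483 and 4342, and the part of depth in the differences was not tested. Ikzf2 (Helios), a transcription factor known from Ly49-bearing regulatory CD8 T cells, had 658, 669, 1589 and 185 CPM in cells with a member UMI of knockouts 1 and 3 and controls 1 and 3, against 116, 70.5, 133 and 55.4 CPM in cells without. It was higher in all 4 libraries, with a log2 difference of 2.66 (SE 0.23, adjusted p = 7.6e-06 by edgeR).

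Some genes known from NK cells were also higher in the cells with a member UMI. Klre1, a lectin receptor, was higher by 2.44 (adjusted p = 0.00022), with 320, 306, 369 and 282 CPM, against 32.7, 33.7, 51.8 and 118 CPM in the same libraries. Fcer1g was higher by 3.49 (adjusted p = 0.00341), with 312, 458 and 421 CPM in knockouts 1 and 3 and control 1 but 35.2 CPM in control 3, against 3.27, 24.5, 19.7 and 17.7 CPM. Of the 10 other lectin receptors tested, 4 were higher and 0 lower (Klre1, Klrc2 by 1.96, Klrk1 by 0.97 and Klrd1 by 0.90). Of the 11 signalling genes tested, 1 was higher, Fcer1g, and 0 were lower, with a median log2 difference of 0.02. The granzyme gene Gzma was higher by 1.22, and Il7r (-1.04), the transcription factor gene Lef1 (-0.98) and Dapl1 (-2.16), genes of naive T cells, were lower. Cd8b1 had 228, 245, 184 and 653 CPM in cells with a member UMI, against 627, 605, 787 and 738 CPM in cells without. The fit called 0.57% of 8593 genes (0.256% lower), members included, and 8 genes without the library in the model. S100a8, a neutrophil gene, was among the genes called (4.95) and rested on knockout 3. Genes of this paragraph beside the lists were named after their values were seen.

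Myeloid cells had 1 member, Klra2 (Ly49B, an inhibitory receptor). It had 379, 531 and 250 CPM in knockouts 1, 2 and 3, against 247, 222 and 343 CPM in controls 1, 2 and 3, and was detected in 63.6%, 50% and 48.4% of myeloid cells, against 48.2%, 52.4% and 56.6%. The groups overlapped, and knockout 2 rests on 10 cells and 22 UMIs. In NK cells of any library at most 1.83% of cells held a Klra2 UMI. The log2 fold change was 0.34 (SE 0.39, unadjusted p = 0.398, adjusted p = 1 by edgeR). The myeloid fit called 0% of 8335 genes, with 82 at an unadjusted p under 0.05 and 0 calls by DESeq2, and the block gave 2 calls.

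Klra2 was read in monocytes and macrophages (Csf1r without Csf3r) at 322 and 226 CPM in knockouts 1 and 3, against 235 and 233 CPM in controls 1 and 3. In neutrophils (Csf3r and S100a8 without Csf1r) it had 45.0 and 203 CPM, against 53.8 and 196 CPM in these libraries. Neutrophils of the libraries numbered 1 were thus lower than those numbered 3 in both groups. Over all libraries myeloid cells held 2026 Klra2 UMIs, of which 762 lay in these monocytes and macrophages and 118 in these neutrophils. Most Klra2 UMIs of myeloid cells thus lay outside both subsets, in cells whose level was not computed apart. NK cells had Klra2 at a log2 difference of -7.20 from myeloid cells (SE 0.30), while the 8 other members were higher in NK cells by 3.49 to 10.21, in a fit that called 25.6% of 9352 genes higher in NK cells and 54.7% in either direction. Klra17 (Ly49Q), outside the 9, had 167 and 152 CPM in plasmacytoid dendritic cells of knockouts 1 and 3, against 114 and 198 CPM in controls 2 and 3.

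Most NK cells showed more than 1 Ly49 gene. At full depth 73.8%, 75.0% and 76.2% of NK cells of knockouts 1, 2 and 3 had UMIs of at least 2 members, against 62.5%, 72.5% and 72.1% in controls 1, 2 and 3. The groups did not overlap, and no test was run on this share. Thinned to 1000 UMIs a cell, the shares were 41.5%, 50% and 51.9%, against 44.4%, 41.0% and 46.2%, and the groups overlapped. The most seen in 1 NK cell was 6 members. Conventional-type cells had at least 2 members in 74.1% to 85.9% of cells per library and ILC1-type cells in 20.7% and 10.8% in controls 1 and 3. In CD8 T cells the share was 11.7% and 7.53% in knockouts 1 and 3, against 9% and 2.99% in controls 1 and 3.

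**Figure D4:**
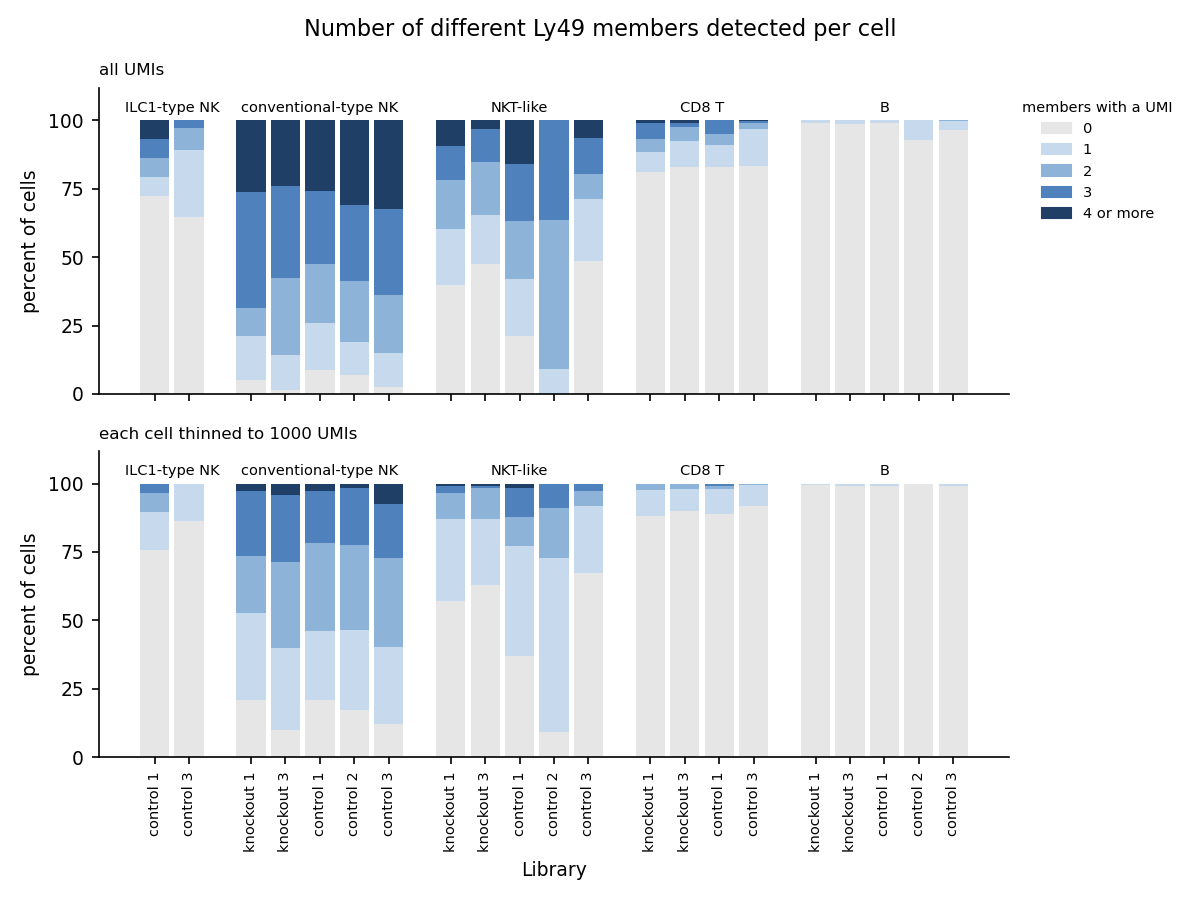
Percent of cells with 0, 1, 2, 3 or at least 4 different members detected, 1 stacked bar per library, at full depth (top) and thinned to 1000 UMIs a cell (bottom). At full depth at least 2 members were seen in 74.1% to 85.9% of conventional-type NK cells per library and in 2.99% to 11.7% of CD8 T cells, and B cells are nearly all at 0.

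Pairs of members were then set against the product of their single shares, a ratio of 1 meaning that 1 gene tells nothing of the other. Pairs entered where each gene was positive in at least 10 cells of a library. In NK cells 5 of 15 pairs lay above 1 in each library with a value: Klra4 with Klra8, Klra4 with Klra7, Klra7 with Klra8, Klra8 with Klra9 and Klra1 with Klra4. The activating pair had ratios of 1.24 and 1.28 in knockouts 1 and 3, against 1.53, 1.29 and 1.39 in controls 1, 2 and 3, over 258 cells with both. Deep cells can show more of every gene and ILC1-type cells show few members, so the values of conventional-type and of thinned cells are given beside these.

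Within conventional-type cells alone, Klra4 with Klra8 had 1.02 and 1.16 in knockouts 1 and 3, against 1.22, 1.14 and 1.21 in controls 1, 2 and 3. After thinning these cells to 1000 UMIs the ratio lay between 1.11 and 1.39 in the 4 libraries with enough cells, and that of Klra8 with Klra9 between 1.20 and 1.52. Klra7 with Klra9 lay on the other side: thinned, it was below 1 in each library with a value, at 0.62 to 0.93 in NK cells and 0.52 to 0.89 in conventional-type cells. At full depth it ran from 0.77 to 1.11 in NK cells, so the direction depends on depth. Klra1 with Klra9 was below 1 in the 3 libraries with a value in conventional-type cells at full depth (0.63 to 0.97) and in the 2 with a value after thinning (0.74 and 0.95). These ratios are descriptions, since cells of 1 library are not replicates.

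A ratio cannot exceed 1 over the larger of the pair's single shares, so the values of T cells, where these shares are low, are not set against those of NK cells. In CD8 T cells Klra6 with Klra7 had 5.40 and 9.12 in knockouts 1 and 3, against 20.2 in control 3, from 33 cells with both. Klra1 with Klra7 had 6.28 in knockout 1, against 21.7 in control 3, from 22 cells. Pairs with Klra3 lay lower than these. Klra3 with Klra7 had 3.06 and 1.82 in knockouts 1 and 3, against 1.81 in control 3. Klra3 with Klra6 had 4.86 and 0.97, against 1.94 in the same libraries. After thinning, no pair had a value in at least 3 libraries in CD8 T cells, and cells with a member UMI were the deeper ones, so the part of depth in these ratios was not tested. In NKT-like cells 8 of 15 pairs were above 1 in each library with a value, among them Klra1 with Klra6 (1.88 to 3.74), Klra6 with Klra7 (1.65 to 2.90) and Klra1 with Klra7 (1.52 to 2.42).

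**Figure D5:**
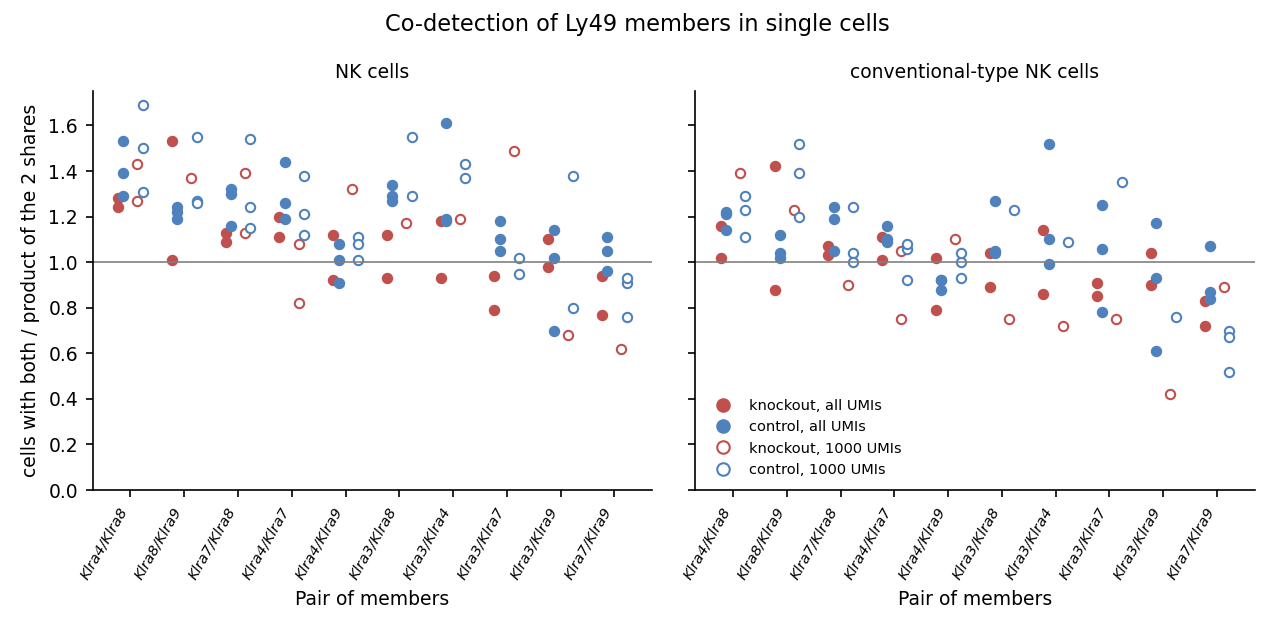
Observed share of cells with both members of a pair over the product of the single shares, in NK cells (left) and conventional-type NK cells (right), 1 point per library, filled at full depth and open after thinning to 1000 UMIs a cell. The line marks a ratio of 1: Klra4 with Klra8 is above it in each library at both depths, and Klra7 with Klra9 is below 1 in each library once thinned.

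Over 44 sums of a class and library, the genes whose log2(CPM + 1) ran most like that of the summed members were Atp8b4 (Pearson r = 0.90), Aoah (0.89), Arhgap9 (0.87), Efhd2 (0.87) and Apobr (0.86). In monocytes, macrophages and neutrophils the summed members are almost all Klra2, so the likeness is to a mixture of lymphoid and myeloid members. The sums share libraries and differ in depth, so the coefficients are descriptions. Like the members, these 5 genes had small log2 fold changes in NK cells of the libraries labelled knockout over controls, from 0.01 for Arhgap9 to 0.23 for Efhd2, and 0 of them passed.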

How the data were processed

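The values analysed are the deposited UMI counts, unnormalised, for each gene in each barcode. Per the file headers, the authors ran Cell Ranger 7.0.1 on libraries numbered 1 and 2 and 9.0.1 on those numbered 3, while the submitters' processing notes give version 9.0.1 with GRCm39. Tumour tissue was dissociated enzymatically and sequenced as 10x 3′ libraries, per the labels' protocols. Hashtag counts in the matrices numbered 3 were not used, so those libraries were not split into mice.

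A barcode needed 500 UMIs, 300 genes and a mitochondrial share of 20% or less. In the libraries numbered 3, whose matrices hold all barcodes, barcodes of up to 5000 UMIs were also compared with the summed profile of near-empty ones (up to 100 UMIs, 10000 simulations, false discovery rate 0.001), which removed 121 in knockout 3 and 150 in control 3. Scrublet (scanpy 1.11.5) scores removed the top 0.8% per 1000 cells as doublets, 62, 0 and 206 in knockouts 1, 2 and 3, and 58, 2 and 796 in controls 1, 2 and 3, and doublets may remain.

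UMIs were summed per library and class with at least 10 cells and tested with the edgeR 4.0.16 quasi-likelihood test (TMM, filterByExpr, two-sided, Benjamini-Hochberg adjustment over all genes tested, threshold 0.05), with the library as a block between classes. The alternatives were DESeq2 1.42.0, its size factors in edgeR, no filter, the replicate block, other cell filters and calls, and leaving out libraries. R was 4.3.3. The plan asked for all 6 libraries in NKT-like and CD8 T cells. Knockout 2 had no such cells, so replicates 1 and 3 were compared there. CPM is a gene's UMIs over all UMIs of the class in that library, scaled to a fixed total. Shares of cells were compared by exact permutation over libraries. Thinning drew 1000 UMIs from each cell and left out shallower cells. The fits were tested on simulated counts.

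Deviations of same-numbered libraries from their group means correlated in NK cells (0.26, 0.13 and 0.15, against -0.19 to -0.02 for other pairs). Such deviations cancel within a group, so positive values for same-numbered pairs push the others negative. The labels state no pairing of animals, so the reported tests between the groups were unpaired. Pairing by number entered only as an alternative. Genes named beside the members are, from each list, the 2 with the lowest p in NK cells, 5 by likeness, the 3 smallest p in NK cells, and those said to be chosen after their values were seen. The members and lists were chosen with earlier results of these data known. Promoters and transcript ends come from RefSeq and GENCODE tables of GRCm38, so no coordinate is that of the counts.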

Additional observations from a re-analysis of the deposited data

How the results depend on the processing

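Of 334 alternative values of members called in the reported fits, 327 kept direction and call, 7 lost the call and 0 turned. Of 299 for members not called, 253 stayed, 13 passed and 33 turned. Klra10 and Klra17 are counted here too, as are the members in CD8 T cells split by a member UMI. That split fixed the members' direction in advance, so those values say nothing of stability. The number of genes called between libraries labelled knockout and controls in NK cells, 1, became 2 with DESeq2, 34 with no filter, 8 with the replicate block, 0 with both libraries numbered 2 left out and 0 to 2 with single libraries left out. In myeloid cells it was 0, and 2 with the block. In NKT-like cells it was 2, then 4 with the block and 0 to 68 with single libraries left out. In CD8 T cells it was 0, then 9 with DESeq2, 23 with the block and 0 to 157 with single libraries left out. With 1 library left in an arm, it is assumed to vary like the others. Between NK and NKT-like cells 986 genes became 587 with no library block and 527 in controls alone. Between NKT-like and CD8 T cells 840 became 369 with no block, 398 in controls alone and 553 to 803 with single libraries left out. Between ILC1-type and conventional-type cells 59 became 164 with no filter, 30 with no block and 111 with at least 3 cells. Leaving out a library was not run there, since no residual degree of freedom would remain, and controls alone are already the reported fit. For CD8 T cells with and without a member UMI 49 became 176 with no filter, 8 with no block, 13 in controls alone and 20 to 74 with single libraries left out. The mean share of NK cells with at least 2 members, 72.0%, became 45.9% after thinning. Signs turned for the share of NK cells with Klra2 (-0.28 points thinned) and Klra4 (0.93 thinned) and Klra5 (-0.06 with Klrb1c alone), for Klra5 in CD8 T cells (-0.32 with DESeq2) and for Klra6 between NK and CD8 T cells (0.54 in controls alone). With single libraries left out, log2 fold changes in NK cells ran from -0.10 to 0.61 for Klra1, -0.40 to 0.69 for Klra3, -0.05 to 0.37 for Klra7 and -0.38 to 0.20 for Klra8. In NKT-like cells they ran from -1.28 to 0.54 for Klra1, -1.24 to 0.19 for Klra3, -0.93 to 0.19 for Klra5, -0.19 to 0.94 for Klra6 and -0.48 to 0.36 for Klra7. In CD8 T cells they ran from -1.14 to 0.67 for Klra5 and -0.24 to 2.41 for Klra7, and for Klra6, NK minus CD8 T, from -1.09 to 0.16. Shares in NK cells ran from -3.64 to 3.10 points for Klra1, -0.05 to 0.90 for Klra2, -0.45 to 3.39 for Klra6 and -2.05 to 5.92 for Klra8. The cause of these changes was not tested. Depth limits Klra2, Klra5 and Klra6 in NK cells, which did not pass the filter, and knockout 2, with 12 NK cells.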
